A study of Mus musculus with 21 samples.

Results

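The genes described here are 9 that mark macrophages, the resident phagocytes of tissues: *Csf1r*, *Emr1*, *Mrc1*, *C1qa*, *C1qb*, *C1qc*, *Cd68*, *Lyz2* and *Cd74*. They were chosen by symbol, as the rows of the RNA-seq expression table that carry these names, and all 9 were found among its 37620 genes. The rule uses the symbol alone and no expression value, although it was drawn up with earlier results of these data known. The samples were germ cells enriched from testes of C57BL/6J (B6) males at 12 days post-partum (dpp), an age at which the first germ cells have entered meiosis. The tissue had been digested with collagenase and trypsin, and the submitters labelled the cells as spermatocytes. There were 12 libraries, 3 for each of 4 sample numbers (186wt, 343wt, 444wt and 456wt), which the study describes as 4 replicates and which share strain, age and the absence of any treatment in their labels. The question is therefore how much RNA of macrophages remained among these germ cells and whether it differed between the 4 preparations. The other 9 samples of the series were not analysed here.

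Macrophages of the testis are usually divided into an interstitial population, which lies beside the Leydig cells, depends on the growth factor receptor CSF1R and carries the mannose receptor CD206, and a peritubular population, which lies on the wall of the seminiferous tubules and carries more MHC class II. Macrophages are a main source of C1q, the recognition molecule of the classical complement pathway, and they take up cell debris and pathogens through scavenger and lectin receptors and digest them in lysosomes. Germ cells are not known for these functions. All values are FPKM, the number of fragments divided by the length of the transcript and by the mapped reads of its library, so that genes can be compared per length.

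The labelled cell type was checked first. Meiotic genes were detected in every library, and the 7 genes of a meiotic list summed to between 250.4 and 415.7 FPKM, against 12.8 to 63.2 FPKM for the 9 macrophage genes. Other cells of the tubules were present too: a spermatogonial list of 6 genes summed to 421.3 to 579.4 FPKM and a list of 8 Sertoli genes to 2325 to 4173 FPKM. Libraries held an estimated 13.0 to 17.9 M (mega) fragments each. The number 444wt had the fewest fragments from the 9 genes, from 34 for *Emr1* to 517 for *Mrc1* over its 3 libraries together, and 343wt the most, from 254 for *Cd68* to 2246 for *Mrc1*. These counts take the longest transcript of each gene. For genes with several transcripts, among them *Emr1*, *Cd68* and *Mrc1*, they are upper estimates. At this depth 3 fragments over all 12 libraries correspond to 0.0164 FPKM for a transcript with an effective length of 1 kb, so all 9 genes were far above the lowest level that could be detected. This limit covers counting error only.

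All 9 genes were expressed, and all 9 passed the minimum mean of 0.1 FPKM used for tests, which 20795 genes passed. *Lyz2*, which encodes the lysozyme of macrophages and other myeloid cells, was the highest at 8.01 ± 4.84 FPKM (SD, n = 4 sample numbers). It was followed by *C1qb* at 6.12 ± 3.87, *Mrc1* at 5.53 ± 2.54, *C1qa* at 5.47 ± 3.18 and *C1qc* at 5.21 ± 2.95 FPKM, then by *Cd68* at 2.95 ± 1.24, *Cd74* at 2.89 ± 1.32 and *Csf1r* at 2.78 ± 1.78 FPKM. *Emr1*, which encodes the F4/80 antigen of mouse macrophages, was the lowest at 1.07 ± 0.874 FPKM. The SD is that between the sample numbers, which the genes share, so neighbours were also compared within libraries. *Lyz2* was above *C1qb* and *Csf1r* above *Emr1* in 12 of 12 libraries, and *C1qc* above *Cd68* in 11. The other neighbours changed places, with the gene of the higher mean above the next in 6 to 8 of 12 libraries. The genes were in the middle of the range of expression: 56.8% of tested genes had a lower mean than *Lyz2* and 31.8% a lower mean than *Emr1*.

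The 4 preparations held very different amounts of these transcripts. The 9 genes together summed to 13.8 ± 1.4 FPKM in 444wt (SD over 3 libraries), 31.0 ± 0.356 in 186wt, 52.9 ± 1.18 in 456wt and 62.4 ± 1.25 FPKM in 343wt, which is 4.52 times the sum in 444wt. Each of the 9 genes had its lowest mean in 444wt, where 21.3% of all tested genes had theirs. For 7 of the 9 the means stood in the order 343wt, 456wt, 186wt, 444wt, an order found in 2.43% of tested genes. The exceptions were *C1qa*, highest in 456wt, and *Mrc1*, higher in 186wt than in 456wt. In bulk RNA, fewer cells of a type and less RNA per cell cannot be told apart.

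**Figure D1:**
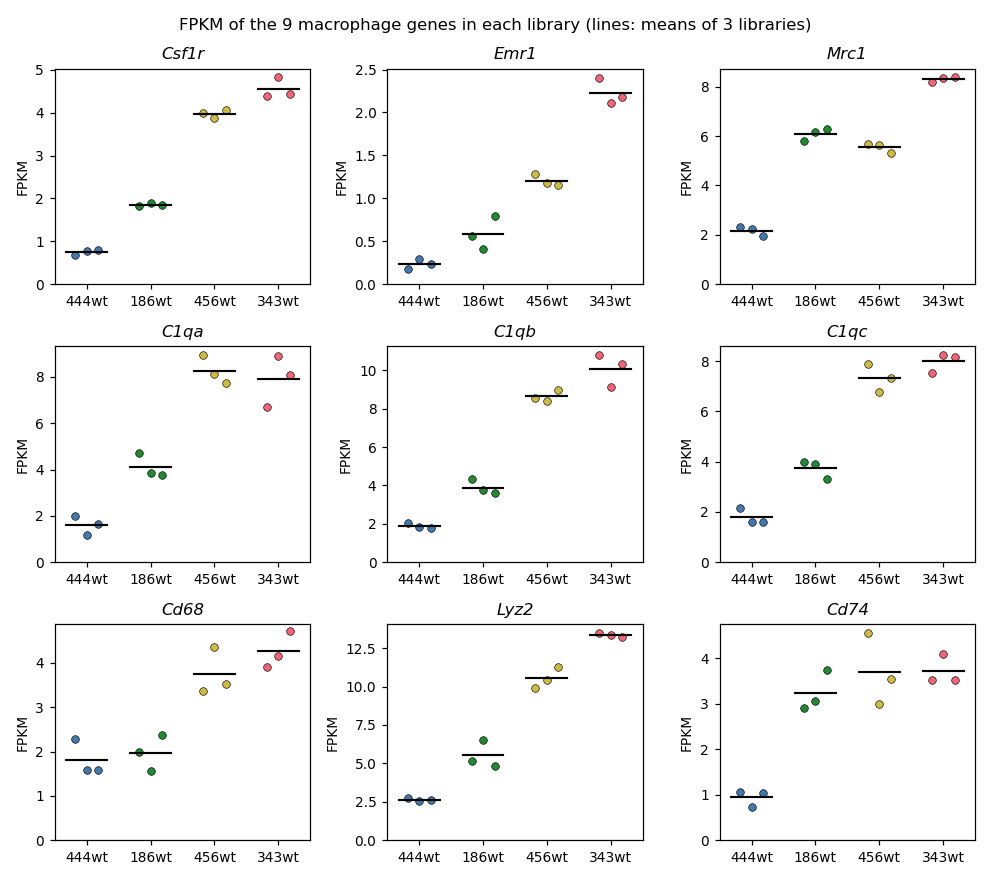
FPKM (vertical axes, from 0) of the 9 macrophage genes in the 12 libraries, by sample number (horizontal axes); points are libraries and lines are means of 3 libraries. The mean of 444wt is the lowest in each panel. Its libraries are below all others except for *Cd68*, where they overlap with 186wt, which holds the lowest library (1.55 FPKM).

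*Csf1r* encodes the receptor through which the ligands CSF1 and IL-34 keep macrophages alive. It lies on chromosome 18 (61265226 to 61291803, plus strand, NCBI build 37) and was measured at 0.69, 0.78 and 0.81 FPKM in 444wt, 1.83, 1.89 and 1.85 in 186wt, 3.99, 3.88 and 4.05 in 456wt, and 4.39, 4.82 and 4.43 FPKM in 343wt. The 4 groups of libraries did not overlap. Of its 5229 exonic bases, 871 are shared with *Hmgxb3* on the opposite strand, and no strand setting is stated, so reads of that gene could be counted for *Csf1r*. *Hmgxb3* was at 21.4 FPKM in 444wt, 21.2 in 456wt, 23.5 in 186wt and 23.6 in 343wt, a range far narrower than that of *Csf1r*.

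*Emr1* (chromosome 17, 57498109 to 57622952, plus strand) encodes an adhesion receptor of the macrophage surface. It was at 0.18, 0.29 and 0.24 FPKM in 444wt, 0.56, 0.41 and 0.79 in 186wt, 1.28, 1.18 and 1.16 in 456wt, and 2.4, 2.11 and 2.18 FPKM in 343wt. This gene had the widest range of the 9, 2.80 on the log2(FPKM + 0.1) scale, and its 4 groups of libraries did not overlap either. *Mrc1* (chromosome 2, 14151041 to 14253684, plus strand) encodes CD206, the mannose receptor that binds sugars on microbes and on hormones. Its values were 2.3, 2.25 and 1.96 FPKM in 444wt, 5.67, 5.62 and 5.33 in 456wt, 5.8, 6.16 and 6.27 in 186wt, and 8.18, 8.37 and 8.41 FPKM in 343wt. Libraries of 186wt were all above those of 456wt, but by a small margin.

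The 3 chains of C1q are encoded side by side on chromosome 4 (136436044 to 136454718), all on the minus strand and within 18675 bp, with 3616 bp between *C1qb* and *C1qc* and 2851 bp between *C1qc* and *C1qa*. One C1q molecule takes equal numbers of the A, B and C chains. *C1qa* was at 1.98, 1.19 and 1.65 FPKM in 444wt, 4.7, 3.85 and 3.78 in 186wt, 6.71, 8.9 and 8.06 in 343wt, and 8.92, 8.12 and 7.73 FPKM in 456wt. *C1qb* was at 2.02, 1.83 and 1.78 FPKM in 444wt, 4.34, 3.74 and 3.6 in 186wt, 8.57, 8.4 and 8.98 in 456wt, and 10.79, 9.12 and 10.32 FPKM in 343wt. *C1qc* was at 2.15, 1.59 and 1.6 FPKM in 444wt, 3.97, 3.91 and 3.31 in 186wt, 7.88, 6.79 and 7.32 in 456wt, and 7.54, 8.25 and 8.17 FPKM in 343wt. For each chain the libraries of 444wt, of 186wt and of the other two numbers were apart. Libraries of 343wt and 456wt overlapped for *C1qa* and *C1qc*, and those of *C1qb* did not.

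Promoter sequences were available for 5 of the 9 genes, *C1qb*, *C1qc*, *Cd68*, *Mrc1* and *Lyz2*, and were not found in the table used for *C1qa*, *Csf1r*, *Emr1* and *Cd74*. The 250 bases before the RefSeq start are shown, 5′ to 3′ on the strand of the gene, for the neighbours *C1qb* and *C1qc*, which followed one another over the sample numbers, and for *Cd68* and *Mrc1*, whose patterns were the farthest from the mean of the 9. They come from build GRCm38.p6, at chr4:136886201-136886450 (minus strand), chr4:136892915-136893164 (minus), chr11:69666171-69666420 (minus) and chr2:14229164-14229413 (plus). Capitals mark matches to GAGGAA, the core that PU.1, the main transcription factor of macrophages, binds, or its complement TTCCTC, and to TTGCNNAA, a form of the site of C/EBP factors, or its complement TTNNGCAA.
C1qb: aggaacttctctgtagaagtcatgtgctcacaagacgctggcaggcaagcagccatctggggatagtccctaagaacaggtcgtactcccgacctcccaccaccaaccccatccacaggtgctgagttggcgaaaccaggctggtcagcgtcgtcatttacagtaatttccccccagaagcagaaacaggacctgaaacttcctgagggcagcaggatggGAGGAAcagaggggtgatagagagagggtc
C1qc: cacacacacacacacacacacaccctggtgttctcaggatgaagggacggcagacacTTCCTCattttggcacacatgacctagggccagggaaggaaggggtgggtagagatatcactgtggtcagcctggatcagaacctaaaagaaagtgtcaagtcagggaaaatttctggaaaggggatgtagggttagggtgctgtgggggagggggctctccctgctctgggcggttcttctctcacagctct
Cd68: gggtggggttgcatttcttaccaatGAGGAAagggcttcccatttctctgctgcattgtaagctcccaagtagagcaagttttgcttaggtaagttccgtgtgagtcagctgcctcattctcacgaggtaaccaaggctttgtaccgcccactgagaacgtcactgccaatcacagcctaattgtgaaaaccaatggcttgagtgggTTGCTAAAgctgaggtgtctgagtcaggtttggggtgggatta
Mrc1: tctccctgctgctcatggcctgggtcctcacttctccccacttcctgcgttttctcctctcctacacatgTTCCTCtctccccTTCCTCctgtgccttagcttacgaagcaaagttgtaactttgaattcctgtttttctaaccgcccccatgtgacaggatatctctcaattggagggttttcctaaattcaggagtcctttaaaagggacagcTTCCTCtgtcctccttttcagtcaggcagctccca
The PU.1 letters occurred in 4 of the 5 promoters, once in *C1qb* (24 bases before the start), once in *C1qc* (187 bases), once in *Cd68* (219 bases) and 3 times in *Mrc1* (174, 161 and 29 bases). They were not in this window of *Lyz2*. Of 32851 promoters of the same length, 23.3% hold them on either strand. The C/EBP letters occurred in 1 of the 5, *Cd68*, 35 bases before the start, and in 9.56% of all promoters. No 2 matches overlapped. A match is a description of the letters and does not show that a factor binds.

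*Cd68* (chromosome 11, 69477715 to 69479655, minus strand) encodes a heavily glycosylated protein of the lysosomal membrane. It was at 2.28, 1.58 and 1.58 FPKM in 444wt, 2, 1.55 and 2.37 in 186wt, 3.36, 4.35 and 3.52 in 456wt, and 3.91, 4.16 and 4.71 FPKM in 343wt. The libraries of 444wt and 186wt overlapped, as did those of 456wt and 343wt. *Lyz2* (chromosome 10, 116714390 to 116719377, minus strand) was at 2.74, 2.54 and 2.59 FPKM in 444wt, 5.15, 6.53 and 4.86 in 186wt, 9.9, 10.42 and 11.28 in 456wt, and 13.5, 13.33 and 13.22 FPKM in 343wt, with no overlap. Its paralog *Lyz1*, 5474 bp away, was at no more than 0.0367 FPKM in any number, a value that itself depends on how RSEM divided the reads that both genes fit. *Cd74* (chromosome 18, 60963502 to 60972300, plus strand) encodes the invariant chain, which escorts MHC class II molecules to the endosome. It was at 1.06, 0.73 and 1.03 FPKM in 444wt, 2.9, 3.05 and 3.74 in 186wt, 4.55, 3 and 3.54 in 456wt, and 3.51, 4.09 and 3.53 FPKM in 343wt. Only 444wt stood apart for this gene, and the other 9 libraries overlapped.

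All 9 genes differed between the 4 sample numbers in limma's F-test on log2(FPKM + 0.1), with Benjamini-Hochberg adjusted p-values from 3.13e-09 for *Csf1r* to 0.000172 for *Cd68*. This count has to be read against the background, since 58.2% of all tested genes were called. The size of the differences was less common. The range between the highest and the lowest number was 1.2 (*Cd68*) to 2.80 (*Emr1*), with a median of 2.31 against 0.55 over all tested genes. A range of at least 2 was reached by 6 of the 9 genes and by 3.99% of tested genes. These sizes rest on 444wt: without it the ranges were 0.20 (*Cd74*) to 1.80 (*Emr1*), with a median of 1.09 against 0.42 over all tested genes, and none of the 9 reached 2, while 8 of 9 were still called (47.7% of tested genes). Nothing in the labels says that the 3 libraries of a number came from separate cultures or animals, so the p-values compare these 4 samples and measure the spread between libraries, which may be technical.

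In pairs of sample numbers, 343wt was higher than 444wt for 9 of 9 genes (17.5% of tested genes were called in this direction), 456wt than 444wt for 9 of 9 (15.1%), 186wt than 444wt for 8 of 9 (16.3%), 343wt than 186wt for 8 of 9 (9.93%), 456wt than 186wt for 7 of 9 (25.9%) and 343wt than 456wt for 3 of 9 (14.2%). No gene was called in the opposite direction in any pair. The pair at the ends of the order was also separate library by library: every library of 343wt was above every library of 444wt for 9 of 9 genes (19.9% of tested genes), and every library of 444wt was below all others for 8 of 9 (7.48%). The largest differences between 343wt and 444wt were those of *Emr1* (2.80 ± 0.21, SE, adjusted p = 6.76e-07 in limma), *Csf1r* (2.44 ± 0.09, adjusted p = 1.8e-09), *C1qb* (2.36 ± 0.09, adjusted p = 2.32e-09) and *Lyz2* (2.31 ± 0.10, adjusted p = 5.35e-09). Over all tested genes the median difference of this pair was -0.138, so relative to it the 9 genes differed slightly more.

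**Figure D2:**
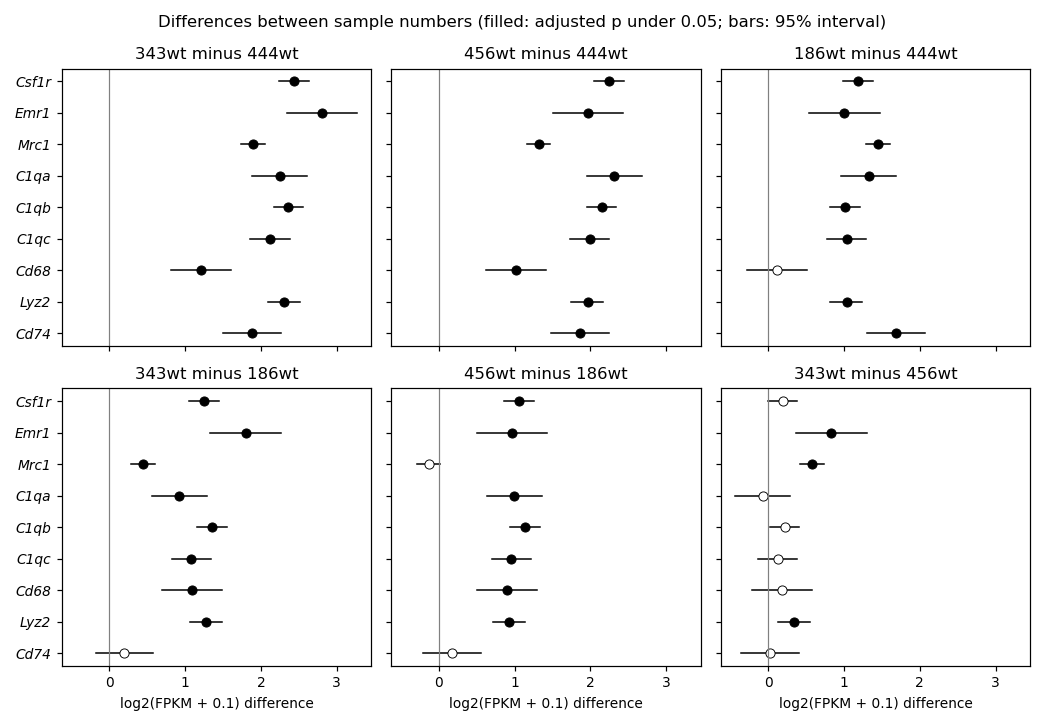
Difference of each macrophage gene on the log2(FPKM + 0.1) scale (horizontal axes) in the 6 pairs of sample numbers (panels); bars are 95% intervals from limma's moderated standard error, and filled points have an adjusted p under 0.05. All 9 points are to the right of 0 for 343wt and 456wt against 444wt, and 6 of 9 points are open for 343wt against 456wt.

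The pairs that were not called were different for different genes. *Cd68* did not pass between 186wt and 444wt (0.12, 95% interval -0.28 to 0.51, limma adjusted p = 0.65). *Cd74* passed in no pair without 444wt, with a difference of 0.20 (-0.18 to 0.58) between 343wt and 186wt, 0.18 (-0.21 to 0.56) between 456wt and 186wt, and 0.02 (-0.36 to 0.41) between 343wt and 456wt. When 444wt was left out, its F-test gave an adjusted p of 0.501. For *Mrc1*, 456wt was lower than 186wt by a margin that did not pass (-0.13, -0.29 to 0.02, limma adjusted p = 0.165).

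Between the highest numbers, 343wt and 456wt, the calls were *Emr1* (0.83, 95% interval 0.37 to 1.3), *Mrc1* (0.58, 0.42 to 0.73) and *Lyz2* (0.34, 0.13 to 0.55), with limma adjusted p-values of 0.00779, 4.21e-05 and 0.0136. The median over all tested genes was -0.114 in this pair, and rescaling the libraries by their median ratio called *Csf1r* and *C1qb* too, 5 in all. Without library 1 of each number *Mrc1* alone was called. The other intervals included small differences in both directions for *C1qa* (-0.44 to 0.29), *C1qc* (-0.14 to 0.38) and *Cd68* (-0.21 to 0.58).

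Whether the genes kept one proportion in every preparation was asked with 6 ratios, each tested by an exact permutation test of its F statistic over the 12 libraries (one-sided for large F, 15400 ways to form the groups, smallest possible p = 6.49e-05, adjusted over the 6 ratios). The chains of C1q did not pass. *C1qa*/*C1qb* was 1.05 ± 0.027 in 186wt (SD over 3 libraries), 0.956 ± 0.0905 in 456wt, 0.852 ± 0.177 in 444wt and 0.793 ± 0.177 in 343wt (exact permutation p = 0.182, adjusted p = 0.182). *C1qc*/*C1qb* lay between 0.798 ± 0.103 in 343wt and 0.96 ± 0.0741 in 186wt (exact permutation p = 0.14, adjusted p = 0.168). In the first ratio the libraries of 186wt were above those of 343wt and 444wt, in the second above those of 343wt, and all other numbers overlapped.

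*Csf1r*/*Mrc1*, a receptor for growth factors against a receptor for sugars, differed the most clearly. It was 0.306 ± 0.0103 in 186wt, 0.353 ± 0.0569 in 444wt, 0.546 ± 0.026 in 343wt and 0.718 ± 0.0369 in 456wt (exact permutation p = 6.49e-05, the smallest possible, adjusted p = 0.00039). The libraries of 343wt and 456wt were apart from each other and from the rest, so 186wt and 444wt, which differed in both genes, had similar proportions. *Emr1*/*Cd68* was 0.138 ± 0.0536 in 444wt, 0.293 ± 0.0361 in 186wt, 0.327 ± 0.0549 in 456wt and 0.528 ± 0.0776 in 343wt (exact permutation p = 0.000455, adjusted p = 0.00136). *Lyz2*/*Cd68* was 1.48 ± 0.244 in 444wt and 2.95 ± 1.13, 2.85 ± 0.413 and 3.15 ± 0.326 in 186wt, 456wt and 343wt (exact permutation p = 0.0153, adjusted p = 0.0306). Neither call passed without 343wt (exact permutation adjusted p = 0.075 for *Emr1*/*Cd68* and 0.0857 for *Lyz2*/*Cd68*) or without 444wt (0.075 and 0.757). Fewer libraries allow fewer groupings, so a lost call alone does not show that it rested on the number left out. For *Lyz2*/*Cd68* only the libraries of 444wt were apart from the rest. Its log2 range was 1.10 with all numbers and 0.95 without 343wt. With a pseudocount of 1 the log2 range of *Emr1*/*Cd68* fell from 1.60 to 0.48 (adjusted p = 0.0618). *Cd74*/*Mrc1* did not pass, with 0.667 ± 0.134 in 456wt and 0.437 ± 0.103 to 0.531 ± 0.0572 in the other numbers (exact permutation p = 0.051, adjusted p = 0.0766). With library 1 or library 3 of each number left out, none of the 6 ratios passed; 8 libraries allow only 105 groupings.

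**Figure D3:**
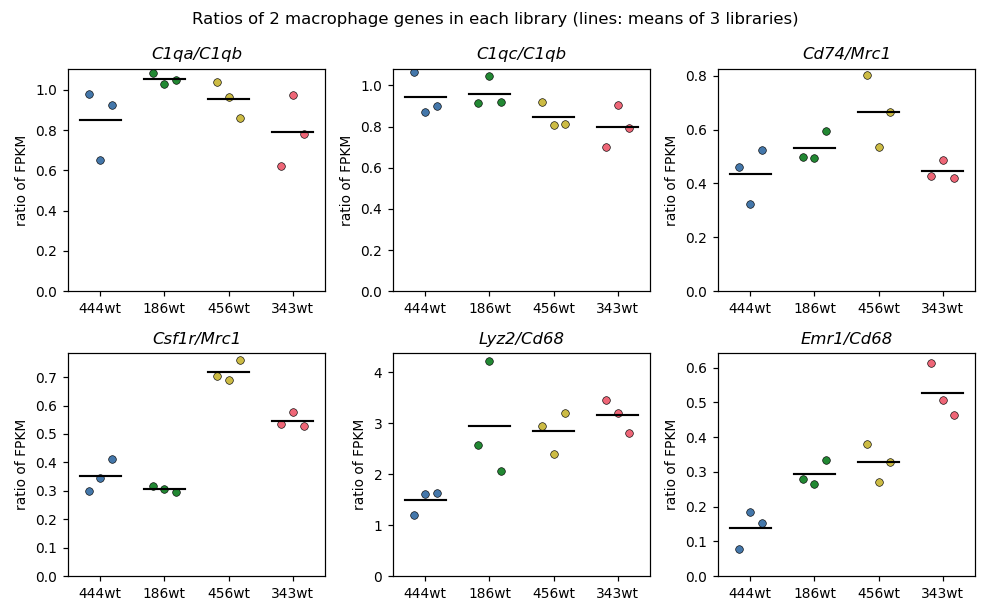
Ratios of FPKM of 2 macrophage genes (vertical axes, from 0) in the 12 libraries by sample number; points are libraries and lines are means of 3 libraries. *Csf1r*/*Mrc1* is between 0.295 and 0.413 in 186wt and 444wt and between 0.69 and 0.76 in 456wt, and the libraries of most numbers overlap in the 2 ratios of C1q chains, whose means are 0.793 to 1.05.

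The genes with the pattern most like the mean of the 9 were searched among 14339 others with a mean of at least 1 FPKM, by the root mean square difference of the log2(FPKM + 0.1) means of the 4 numbers after each gene was centred. The nearest were *Laptm5* (0.07), *Fcgr3* (0.08), *Ctss* (0.09), *Serpina3c* (0.11) and *Tyrobp* (0.12). *Laptm5* encodes a lysosomal membrane protein of blood cells, *Fcgr3* a receptor for the constant part of IgG, *Ctss* the protease cathepsin S and *Tyrobp* the signalling adaptor DAP12. *Laptm5* was at 1.2 FPKM in 444wt, 3.01 in 186wt, 5.08 in 456wt and 6.46 in 343wt, and *Fcgr3* at 0.603, 1.32, 2.70 and 2.95 FPKM in the same order. Of the 9 genes themselves, *C1qc* was nearest to their mean (0.07) and *Cd68* (0.40) and *Mrc1* (0.33) the farthest. Within the distance of *Cd68* there were 54 other genes, and they were not all myeloid. The Leydig gene *Cyp11a1* was at 0.26, nearer than *Emr1* (0.29), *Cd74* (0.31), *Mrc1* and *Cd68*. These distances rest on 4 points a gene and carry no test.

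Genes that act with the 9 were described by lists chosen by function. In the list of ligands of CSF1R, signalling adaptors and myeloid transcription factors, 9 of 11 genes were called between the numbers (58.2% of all tested genes), with a median range of 1.08. Of the 11, 7 were called higher in 343wt than in 444wt (17.5% of tested genes) and none was called lower (30.4%). The adaptors *Tyrobp* and *Fcer1g* were at 1.02 and 2.06 FPKM in 444wt and at 4.81 and 5.69 FPKM in 343wt. PU.1 itself (listed as *Sfpi1*) was low, at 0.31 FPKM in 444wt and 1.04 FPKM in 343wt as well as 456wt (range 1.46, adjusted p = 0.00118 in limma's F-test). The ligands did not stand in the order of their receptor. *Csf1* was at 5.58 FPKM in 186wt, 6.18 in 444wt, 6.64 in 343wt and 10.1 in 456wt, with no call between 343wt and 444wt (0.10, adjusted p = 0.265), where *Csf1r* differed the most. *Il34* was between 0.577 and 1.16 FPKM, with no call (F-test adjusted p = 0.324).

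Among the other components of the classical complement pathway and the complement receptors, 9 of 11 tested genes were called (58.2% of all tested genes). In the contrast of 343wt with 444wt, 6 were called higher in 343wt (17.5%) and 1, *C4a*, lower (30.4%). *C1ra* and *C1s*, the proteases that C1q carries, were at 12.1 and 25.1 FPKM in 186wt and at 19.6 and 42.4 FPKM in 456wt, well above the C1q chains. Both were called higher in 343wt than in 444wt (0.50 and 0.25 on the log2 scale, limma adjusted p = 9.99e-07 and 0.000656). Their differences were smaller than those of the C1q chains (2.12 to 2.36). *Serping1*, the inhibitor of these proteases, was at 20.9, 25.7 and 24.2 FPKM in 186wt, 343wt and 444wt and 53.6 FPKM in 456wt, and *C3* at 1.49, 1.41, 1.84 and 5.57 FPKM in the same order. In all, 6 genes of this list were higher in 456wt than in 343wt, where 27.6% of tested genes were called, and none of the C1q chains was among the called. The receptors *C5ar1* and *C3ar1*, both found on macrophages, were low and higher in 343wt than in 444wt. The receptor chain gene *Itgb2* was also called higher (1.03, limma adjusted p = 0.00831), while *Itgam* was not called (0.58, limma adjusted p = 0.109). *C3ar1* was at 0.14 and 0.5 FPKM in 444wt and 343wt (limma adjusted p = 0.0019), and *C5ar1* was listed at 0 in all libraries of 444wt and at 0.237 FPKM in 343wt (adjusted p = 0.000934).

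In the MHC class II list, the partners of *Cd74*, 4 of 8 tested genes were called, a share near the 58.2% of all tested genes, and the median range was 0.68. *H2-Aa* was at 0.36 FPKM in 444wt, 0.56 in 186wt, 1.03 in 343wt and 1.23 FPKM in 456wt, and *Ctss*, which cuts the invariant chain, at 1.06, 2.1, 4.45 and 4.19 FPKM. *H2-Ab1*, the beta chain that pairs with *H2-Aa*, was the highest of the list and had the opposite order, with 4.04 FPKM in 444wt and 2.91 FPKM in 343wt (-0.46, adjusted p = 0.0107). *H2-DMa* was at 2.27 to 2.46 FPKM in every number (F-test adjusted p = 0.859). The transcription factor of these genes, *Ciita*, was at 0.0933 to 0.2 FPKM.

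Of the scavenger, lectin and phagocytic receptors, 13 of 15 tested genes were called in the F-test (58.2% of all tested genes). In the contrast of 343wt with 444wt, 11 genes of the list were called higher in 343wt (17.5%) and 2, *Mrc2* and *Clec10a*, lower (30.4%), and the F-test of *Clec10a* did not pass (adjusted p = 0.086). *Stab1*, a scavenger receptor also made by sinusoidal endothelium, was at 1.51 and 6.6 FPKM in 444wt and 343wt, and *Fcgr2b*, the inhibitory IgG receptor, at 1.10 and 5.01 FPKM. *Mertk*, a receptor for dying cells that Sertoli cells also use, was at 7.81 and 13.5 FPKM. The collagen receptor *Mrc2*, the relative of *Mrc1*, was highest in 456wt at 8.03 FPKM and lowest in 343wt at 3.9 FPKM. Of the lysosomal list 8 of 8 tested genes were called (58.2% of all), but with a median range of 0.42. *Ctsl*, *Lamp1* and *Ctsd* were at 638 to 1127, 178 to 202 and 146 to 186 FPKM over the numbers, levels far above *Cd68* and *Lyz2*. Pan-leukocyte genes were called higher in 343wt than in 444wt for 8 of 8 (17.5% of tested genes), with *Lcp1* at 4.16 to 5.95 FPKM and *Arhgdib* at 1.67 FPKM in 444wt and 6.30 FPKM in 456wt.

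**Figure D4:**
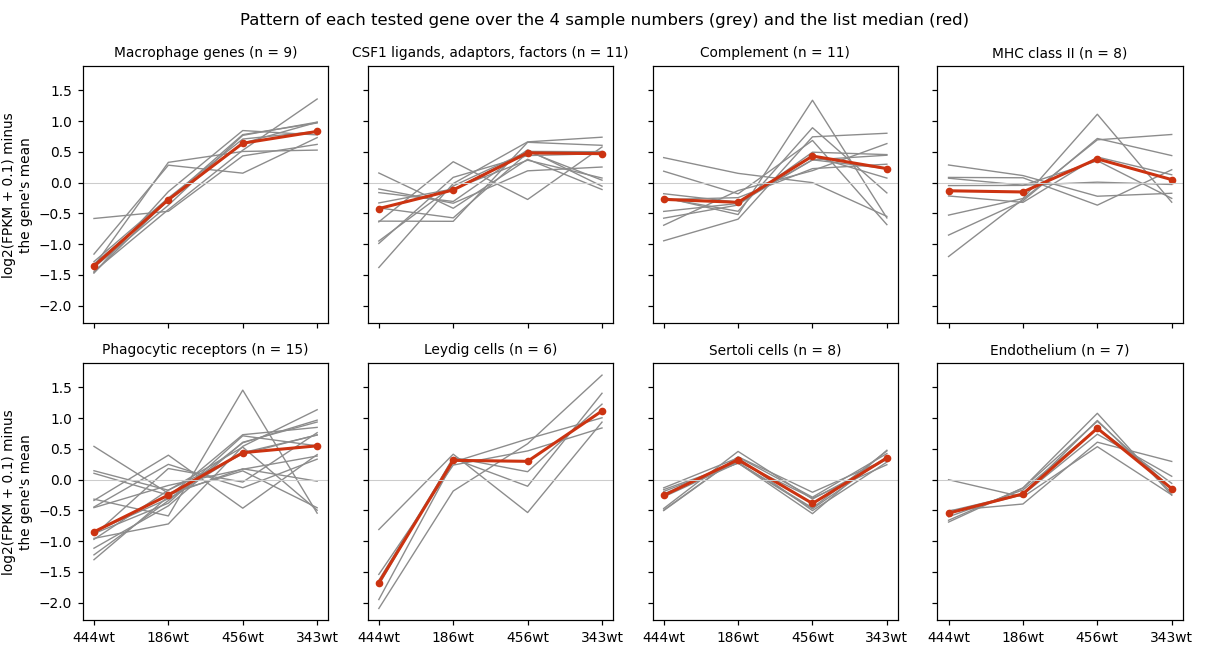
Mean of each tested gene in a sample number minus the gene's mean over the 4 numbers (vertical axes, log2(FPKM + 0.1)), for 8 lists (panels); grey lines are genes and red points are the medians of a list. The medians of the macrophage genes and of the Leydig list are lowest in 444wt and highest in 343wt, while the Sertoli median is lowest and the endothelial median highest in 456wt.

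Other cell types could be in such preparations, and the marker lists of some moved with the macrophage genes. The Leydig list, the steroid-producing cells beside which interstitial macrophages lie, had the nearest order in its sum. All 6 of its genes were called (58.2% of tested genes), all 6 were called higher in 343wt than in 444wt (17.5%) and their median range was 2.95. Gene by gene, 3 of the 6 had the order 343wt, 456wt, 186wt, 444wt (2.43%). All 6 were called higher in 343wt than in 456wt (14.2%), against 3 of the 9 macrophage genes. Only 2 of the 6 were called higher in 456wt than in 186wt (25.9%), against 7 of the 9. The list summed to 15.4 to 17.4 FPKM in the libraries of 444wt, 55.3 to 58.0 in 186wt, 56.4 to 64.7 in 456wt and 109.8 to 110.9 FPKM in 343wt, and none of its genes was at 0. *Insl3*, a hormone of Leydig cells, ranged from 2.41 FPKM (444wt) to 34.4 FPKM (343wt). The sum of the 9 macrophage genes was 0.549 and 0.564 times that of the Leydig genes in 186wt and 343wt, and 0.859 and 0.869 times in 444wt and 456wt. The part of Leydig cells or of the tissue between the tubules in the macrophage result was not tested.

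Sertoli genes, which mark the somatic cells inside the tubules, were called higher in 343wt than in 444wt for 8 of 8 (17.5% of tested genes), with a median range of 0.90. They summed to 2325 to 2337 FPKM in the libraries of 444wt, 2477 to 2503 in 456wt, 4018 to 4043 in 186wt and 4144 to 4173 FPKM in 343wt, so 456wt was low for them and high for the macrophage genes. Endothelial genes were highest in 456wt (63.5 to 65.5 FPKM against 30.6 to 38.5 in the other libraries), and so were those of peritubular myoid cells (1147 to 1170 FPKM against 258.0 to 699.7) and of red blood cells (171.4 to 174.8 FPKM against 27.7 to 100.7). The meiotic list was highest in 444wt, at 412.7 to 415.7 FPKM against 250.4 to 289.6, with 7 of 7 genes called higher there than in 343wt (30.4% of tested genes). The spermatogonial list was also highest in 444wt, at 573.4 to 579.4 FPKM against 421.3 to 531.0. Of its 6 genes, 4 were called higher there than in 343wt (30.4% of tested genes) and 1 was called lower (17.5%). The part of these cells in the macrophage result was not tested.

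*Lyz2* and *Cd68* are also active in other myeloid cells, and *Cd74* in B cells and dendritic cells. Of the neutrophil list *Ly6g* was listed at 0 in all libraries. *S100a8* and *S100a9* were listed at 0 in 186wt and 343wt and were at 1.9 and 2.17 FPKM in 456wt, while *Camp*, the highest of the list, was at 0.8, 1.43 and 1.2 FPKM (186wt), 1.3, 2.27 and 2.22 FPKM (456wt), at most 0.23 FPKM in 343wt and listed at 0 in 444wt. The list summed to 6.83 to 9.43 FPKM in 456wt, 0.98 to 1.55 in 186wt, at most 0.69 in 444wt and 0.14 to 0.3 FPKM in 343wt. *Lyz2* stood in the order 343wt, 456wt, 186wt, 444wt. The part of neutrophils or other immune cells in the macrophage result was not tested. B cell genes summed to no more than 0.84 FPKM in a library, with *Cd79a* the highest at 0.255 FPKM. In the dendritic cell list *Zbtb46* was at 9.86 to 11.6 FPKM and *Flt3* at 0.833 to 1.16 FPKM, without the order of the macrophage genes, and the remaining genes were low (the list summed to 11.2 to 13.5 FPKM). T and NK cell genes summed to 2.58 to 5.01 FPKM, of which *Lck* was 1.06 to 2.58 FPKM. Monocyte genes summed to 2.55 to 7.37 FPKM, with *Plac8* from 2.11 (186wt) to 5.24 FPKM (343wt) and *Ly6c2* at 2.04 FPKM in 456wt. Mast cell genes were low, at most 1.69 FPKM together, with *Fcer1a* listed at 0 throughout and *Mcpt4* and *Tpsb2* at 0.36 and 0.45 FPKM in 343wt.

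**Figure D5:**
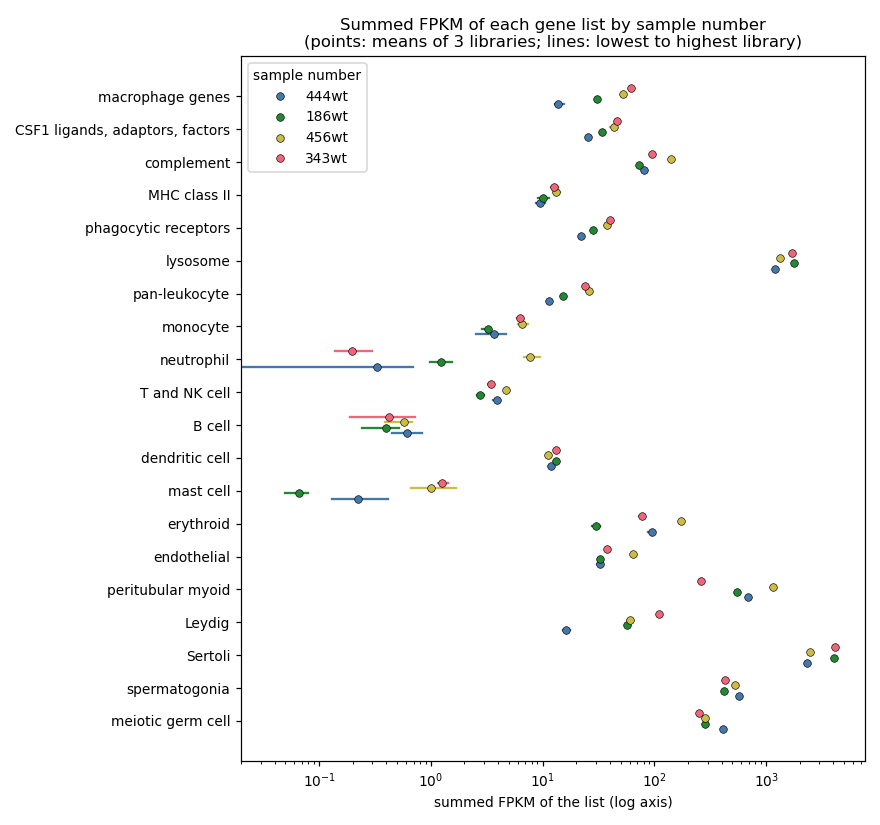
Summed FPKM of the 20 gene lists (horizontal axis, log scale) by sample number (colours); points are means of 3 libraries and lines run from the lowest to the highest library, with a library at 0 drawn at the left edge. The macrophage genes span 13.8 to 62.4 FPKM, against 11.3 to 25.8 for the pan-leukocyte list and 16.1 to 110.5 for the Leydig list.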

How the data were processed

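RNA-seq was measured in 12 libraries of germ cells from testes of B6 males at 12 dpp, 3 for each of 4 sample numbers. To make the deposited FPKM, the authors mapped paired reads of 100 bp onto transcripts of NCBI build 37 using Bowtie 0.12.9, discarded those with 2 mismatches or more, and ran RSEM 1.2.8 (fragment length 280 ± 50 bp). Their FPKM are rounded to 2 decimals, and no strand setting is stated. RSEM divides reads among transcripts that they fit equally well, so near-identical genes share uncertainty.

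The members and the lists were chosen with earlier results of these data known. Columns were matched to samples by name and the 3 libraries of a number averaged. Genes whose mean reached 0.1 FPKM were tested on log2(FPKM + 0.1) with limma 3.58.1 in R 4.3.3 (lmFit, eBayes with trend, F-test and pairwise contrasts), with p-values adjusted over the 20795 genes tested. A fold change on this scale understates the change of low genes. Ratios were tested by exact permutation in Python 3.11.15 with numpy 2.4.6 and scipy 1.17.1, and plots were drawn with matplotlib 3.10.9. Positions are from GENCODE M1 on NCBI build 37. The depth was estimated from the steps between low FPKM values, of which 75.9% to 79.4% a library lay within 0.15 of a whole number of fragments. The fragment counts served for precision only. *Spi1* was found under its synonym *Sfpi1*, *Rhox5* was not found, and of 2 rows named *Ciita* the one with the higher mean was used. Free to be named were the 9 genes, the 5 nearest by pattern and every gene of the CSF1R partner, complement and MHC class II lists. Of each other list, the 3 highest genes and the 2 with the smallest p-value could be named. *Clec10a*, *Cyp11a1*, *Fcer1a*, *Ly6g* and *Lyz1* were named after their values were seen. A gene covered by this rule is not reported here. Across the sample numbers, the deviations of 18 pairs of same-numbered libraries correlated at -0.041 to 0.03 (genes as points). No pairing was therefore used in the main test, although such values do not exclude a batch shared by some genes. The scripts were tested on simulated data. Alternatives were other pseudocounts and filters, 2 rescalings, eBayes without trend, library number as a block, and leaving out libraries or a sample number.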

Additional observations from a re-analysis of the deposited data

Results flagged for a closer look

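A sample number was set apart when its gap to the nearest other number, divided by the range of the 4, was above the 95% critical value of Dixon's test. This was so for 11 of 104 values, and in all 11 the number was 456wt. For a single value chance gives about 1 in 20. The 104 values share the same 4 samples and include list sums beside their own genes. They are not independent, so the count cannot be set against that share. None of the 9 macrophage genes and none of their 6 ratios was among them. The summed neutrophil list was at 7.72 FPKM in 456wt against 0.197 to 1.24 in the others, with *S100a8* at 1.9 (0 to 0.0667), *S100a9* at 2.17 (0 to 0.0967) and *Ngp* at 1.25 FPKM (0 to 0.02). The summed endothelial list was at 64.2 FPKM (32.6 to 37.9), with *Kdr*, a receptor of vascular growth factor, at 6.48 FPKM (2.27 to 2.81). The complement genes *C3* and *Serping1* were at 5.57 (1.41 to 1.84) and 53.6 FPKM (20.8 to 25.7). *H2-DMb1* was at 0.827 (0.193 to 0.223), the monocyte gene *Ly6c2* at 2.04 (0.757 to 0.893) and the T cell gene *Cd3g* at 0.787 FPKM (0.283 to 0.357). The libraries of *H2-DMb1* overlapped, at 1.03, 0.29 and 1.16 FPKM in 456wt and up to 0.37 FPKM in 444wt. This gene passed limma's F-test narrowly (adjusted p = 0.0455).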

How the results depend on the processing

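The count of 9 genes called between the 4 sample numbers was the same under every alternative except the one without 444wt, where *Cd74* was lost. With the library number as a replicate block 9 genes were called between the numbers. In the 6 pairs the counts were 9, 9, 8, 8, 7 and 3, all as without it. In the other lists 106 genes were called with the block and without it. Among all 20795 tested genes 11774 were called with the block and 12107 (58.2%) without it. No pair of same-numbered libraries deviated together above 0.1 over all genes, which does not exclude a batch shared by some genes. The count of genes higher in 343wt than in 456wt was 3, and became 5 with median-ratio rescaling and 1 to 3 with a library of each number left out (1 without library 1). Of the ratios, *Emr1*/*Cd68* had a log2 range of 1.60, which fell to 0.48 with a pseudocount of 1 (adjusted p = 0.0618). Without 343wt its range was 0.95 (adjusted p = 0.075) and that of *Lyz2*/*Cd68* 0.95 (0.0857), and without 444wt they were 0.71 (0.075) and 0.19 (0.757), by exact permutation. With one library of each number left out, the log2 range was 1.12 to 1.23 for *Csf1r*/*Mrc1*, 0.90 to 1.26 for *Lyz2*/*Cd68*, 1.19 to 1.82 for *Emr1*/*Cd68* and 0.39 to 0.77 for *Cd74*/*Mrc1*. *Cd74*/*Mrc1* passed only without library 2 (adjusted p = 0.0381), and of the leave-outs of libraries this was the only one under which the other 3 passed. The mean level of each gene moved by less than its spread under all 45 alternatives. Counts in the other lists were within 1.5 times under 191 of 209 alternatives. With a minimum mean of 1 FPKM, which tests fewer genes, the MHC class II count went from 4 to 2, phagocytic receptors from 13 to 7, pan-leukocyte genes from 8 to 5, T and NK cell genes from 2 to 1, and neutrophil (4) and mast cell genes (2) to 0; without the filter there were 4 mast cell genes. Leaving out library 2 or 3 gave 2 MHC class II, 5 pan-leukocyte, 1 T and NK cell and 0 dendritic cell genes (1 with all libraries). Without library 2, monocyte genes went from 2 to 1 and mast cell genes to 1, and without library 1 no mast cell gene was called. The depth limits the smallest values: *Emr1* in 444wt rests on an estimated 34 fragments at most.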
